A study of Rattus norvegicus with 6 samples.

Results

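The genes described here are 8 that encode structural proteins of the myelin sheath: Mbp, Pmp22, Pmp2, Prx, Mag, Mal, Cnp and Ncmap. They were read in libraries of rat outer hair cells, the electromotile sensory cells of the cochlea, which carry no myelin themselves. Each symbol had a single row in the deposited table of 35790 genes, and all 8 were among the 13507 genes that passed the filter on low counts. The set was named with earlier results of the same basal and apical libraries known. Its difference between basal and apical libraries is therefore given as a description, with no test.

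The rats were Sprague-Dawley, wild type and 9 days old (postnatal day 9). Of the libraries, 3 were from the basal turn of the cochlea, tuned to high frequencies, and 3 from the apical turn, tuned to low frequencies. Each was made from 30 outer hair cells picked under a microscope after 10 min in 1 mg/ml collagenase IV. No label says whether the 3 libraries of a turn came from separate animals, so spreads and p-values cover only the libraries and may be technical. Total counts were 16511675 to 20301499 in basal and 18617323 to 23140976 in apical libraries. A count of 3 corresponded to 0.147 to 0.184 CPM in basal and 0.125 to 0.159 CPM in apical libraries, where CPM is the count scaled to a common library size by TMM. In pools of picked cells, fewer cells of a type and less RNA per cell cannot be told apart.

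Myelin is the stack of membrane that Schwann cells wrap around peripheral axons and oligodendrocytes around central ones. Compact myelin, where membrane layers lie pressed together, holds Mbp, which binds the cytoplasmic faces of the membrane, Pmp22, a protein with several membrane spans, Pmp2, a fatty acid binding protein, and Mal, a proteolipid of membrane trafficking. Mag, an adhesion protein facing the axon, Cnp, a cyclic nucleotide phosphodiesterase, and Ncmap belong to the uncompacted parts, and Prx (periaxin) anchors the outer Schwann cell membrane. In the cochlea, Schwann cells myelinate the nerve fibres that run towards the organ of Corti, and fibres lose their myelin before they reach the hair cells.

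The bases just upstream of 4 of these genes are shown because they carry the contrasts described below. Pmp22 and Mbp were the most abundant members in basal libraries, Prx was the member nearest to 0 in apical libraries, and Cnp was the member whose groups overlapped. Each line gives the 250 bases before an annotated start, 5′ to 3′ on the strand of the gene, from RefSeq's table for GRCr8. Capitals mark matches on either strand to ACAAAG or AACAAT, core motifs of SOX factors, or to GCGNGGGCG or GTGGGCG, motifs of EGR factors.
Pmp22, chr10:48294682-48294931, plus strand: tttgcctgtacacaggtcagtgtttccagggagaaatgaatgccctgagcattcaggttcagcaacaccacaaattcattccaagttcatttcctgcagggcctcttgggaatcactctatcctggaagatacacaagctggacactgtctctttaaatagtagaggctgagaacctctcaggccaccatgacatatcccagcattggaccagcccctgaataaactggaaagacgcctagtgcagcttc
Mbp, chr18:78209995-78210244, plus strand: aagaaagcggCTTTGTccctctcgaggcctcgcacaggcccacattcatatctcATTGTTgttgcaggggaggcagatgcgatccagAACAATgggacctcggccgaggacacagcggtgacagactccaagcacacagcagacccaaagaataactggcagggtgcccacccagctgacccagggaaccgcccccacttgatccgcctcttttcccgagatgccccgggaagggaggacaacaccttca
Prx, chr1:91914171-91914420, plus strand: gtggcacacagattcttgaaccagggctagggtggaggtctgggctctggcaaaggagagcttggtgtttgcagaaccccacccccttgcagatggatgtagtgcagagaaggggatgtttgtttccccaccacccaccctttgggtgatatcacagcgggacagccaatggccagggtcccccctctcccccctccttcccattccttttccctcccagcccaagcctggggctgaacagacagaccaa
Cnp, chr10:86011254-86011503, plus strand: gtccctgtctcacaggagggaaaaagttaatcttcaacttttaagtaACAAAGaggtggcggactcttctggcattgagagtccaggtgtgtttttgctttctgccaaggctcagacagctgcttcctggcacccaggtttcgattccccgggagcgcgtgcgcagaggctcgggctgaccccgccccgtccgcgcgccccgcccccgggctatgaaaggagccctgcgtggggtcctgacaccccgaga
The table held 8 windows for 7 of the members, with 2 for Mbp at different starts, of which the downstream one is shown. SOX motifs were found in 3 of the 8 windows. The downstream Mbp window held ACAAAG once and AACAAT on each strand, Cnp held ACAAAG from 203 to 198 bases before its start, and Mag held ACAAAG on the opposite strand. Of all 33469 windows of this length, 24.5% held either SOX motif and 9.57% either EGR motif. No member's window held either EGR motif in these letters.

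The myelin genes took a larger share of every basal library than of any apical library. Summed over the 8 genes, they held 0.182% (95% exact binomial interval 0.180% to 0.184%), 1.80% (1.80% to 1.81%) and 1.34% (1.33% to 1.34%) of counts in basal replicates 1, 2 and 3. In apical replicates 1, 2 and 3 they held 0.0198% (0.0193% to 0.0204%), 0.0230% (0.0223% to 0.0237%) and 0.00872% (0.00834% to 0.00911%). These intervals cover counting error only. Basal replicate 1 stood well below the other basal libraries and still above all 3 apical ones. For 7 of the 8 genes the basal libraries all lay above the apical libraries in CPM, against 5.4% of all genes tested that were separate in this direction. Since this contrast served to choose the genes, nothing is read from that count. The median log2 fold change was 6.60 over the 8 genes, with a range of 3.02 to 12.89, and -0.02 over all genes tested.

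**Figure D1:**
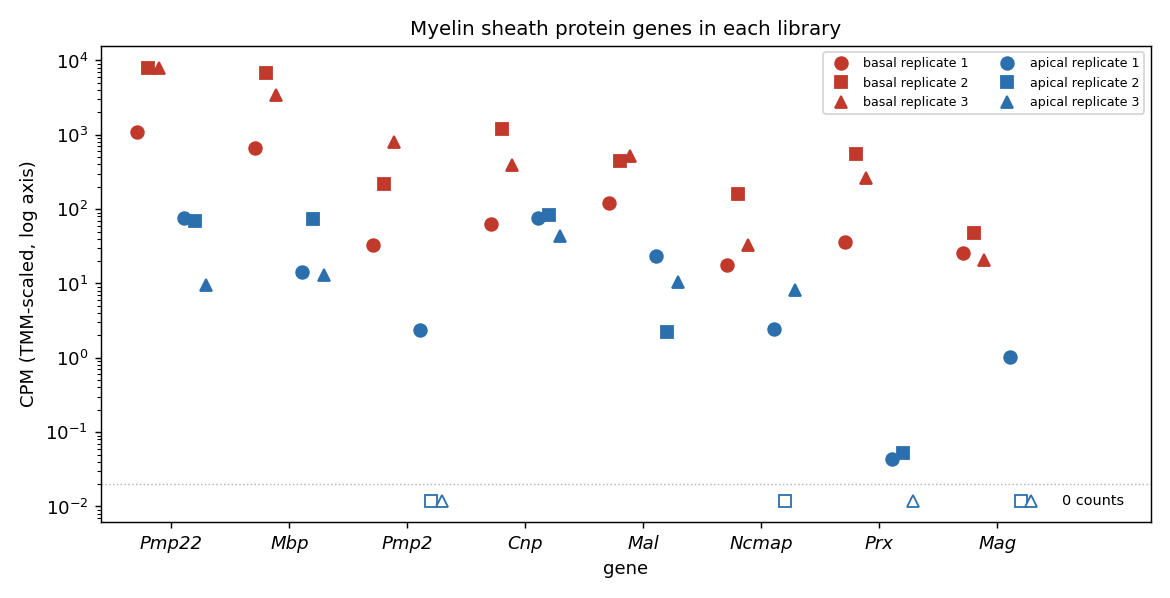
TMM-scaled CPM on a log axis for each of the 8 genes, with basal libraries in red on the left and apical libraries in blue on the right; marker shapes give the replicate and open symbols on the bottom strip stand for 0 counts. Cnp is the only one of the 8 in which basal replicate 1, at 63.5 CPM, lies within the apical range of 43.2 to 82.5 CPM.

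Pmp22 and Mbp were the most abundant. Pmp22 (ENSRNOG00000003338, plus strand of chromosome 10, 49538588 to 49568583 in the deposited table, on a build that the sources used here do not give) had 17821, 137243 and 159681 counts in basal replicates 1, 2 and 3, against 1779, 1286 and 225 in apical replicates 1, 2 and 3. Its CPM averaged 5653 ± 3951 in basal and 51.6 ± 36.8 in apical libraries (SD, n = 3 each), with a log2 fold change of 6.77 (SE 1.17). The lowest basal value was 14.2 times the highest apical value. Mbp (ENSRNOG00000016516, plus strand of chromosome 18, 79326738 to 79437310 in that table) had 10912, 115763 and 70597 basal counts, against 331, 1394 and 313 apical counts. Its CPM averaged 3635 ± 3053 in basal and 33.9 ± 34.9 in apical libraries (SD, n = 3 each), with a log2 fold change of 6.75 (SE 1.20). Apical replicate 3 was the lowest of its group for both genes, for Mbp only just, at 13.1 CPM against 14.4 CPM in apical replicate 1. The highest was apical replicate 2 for Mbp and apical replicate 1 for Pmp22.

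Prx had the largest separation. Periaxin (ENSRNOG00000018369, plus strand of chromosome 1, 84304228 to 84324560) had 585, 9368 and 5268 basal counts, against 1, 1 and 0 apical counts. Its CPM in basal replicate 1, 35.8, was 674 times the highest apical CPM, 0.0532. With 2 apical counts in all, the ratio of its summed TMM-scaled rates, basal over apical, was 9308 (95% interval 2576 to 76868, counting error only), and the fitted log2 fold change of 12.89 depends on the prior count. Each apical library lay below the floor of 3 counts.

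Pmp2 and Mag were at 0 in apical replicates 2 and 3. Pmp2 (ENSRNOG00000022707, plus strand of chromosome 2, 93827504 to 93831419) had 540, 3743 and 16384 basal counts, against 54, 0 and 0 apical counts. Its log2 fold change was 8.79 (SE 2.21), and basal replicate 3 held most of its reads. Mag (ENSRNOG00000021023, minus strand of chromosome 1, 89345429 to 89360733) had 425, 810 and 415 basal counts, against 24, 0 and 0 apical counts, with a log2 fold change of 6.46 (SE 2.31). Mag was the member that varied least among basal libraries, its highest CPM being 2.32 times its lowest, while that ratio was 24.3 for Pmp2. For both genes all apical reads came from apical replicate 1.

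Mal, Ncmap and Cnp had reads in at least 2 of the apical libraries and the smallest differences. Mal (ENSRNOG00000015445, minus strand of chromosome 3, 120209647 to 120233655) had 1995, 7691 and 10719 basal counts, against 536, 42 and 251 apical counts, and a log2 fold change of 4.93 (SE 0.98). Ncmap (ENSRNOG00000048139, minus strand of chromosome 5, 153729250 to 153737161) had 290, 2697 and 668 basal counts, against 57, 0 and 196 apical counts. Its log2 fold change was 4.28 (SE 1.82), or 2.84 without basal replicate 2, and basal replicate 1 stood only 2.17 times above the highest apical library in CPM. Cnp (ENSRNOG00000017496, plus strand of chromosome 10, 88490798 to 88497356) had 1037, 20228 and 7907 basal counts, against 1749, 1552 and 1032 apical counts. Its CPM was 63.5, 1183 and 388 in basal replicates 1, 2 and 3, and 75.8, 82.5 and 43.2 in apical replicates 1, 2 and 3. Basal replicate 1 lay at 0.770 times the highest apical CPM, so the groups overlapped, and its log2 fold change of 3.02 (SE 0.93) rested on basal replicates 2 and 3, and was 1.77 without basal replicate 2. Of the 4 genes with reads in every apical library, Cnp was the most even, with a highest over lowest CPM of 1.91, against 5.66 for Mbp, 8.20 for Pmp22 and 10.4 for Mal.

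Levels between genes were compared as FPKM, fragments scaled by gene length and library total. In basal libraries Pmp22 averaged 3147 ± 2268 FPKM and Mbp 1885 ± 1641 FPKM (SD, n = 3 each), followed by Pmp2 at 263 ± 300, Cnp at 242 ± 262, Mal at 162 ± 99.7, Ncmap at 139 ± 159, Prx at 61.9 ± 58.1 and Mag at 13.4 ± 6.90 FPKM. Pmp22 was above Mbp, Mbp above Pmp2 and Ncmap above Prx in 3 of 3 basal libraries. The neighbours from Pmp2 to Ncmap changed places between libraries, each pair holding its order in 1 or 2 of 3, and their mean FPKM differences were smaller than the SD of the difference. Mag and Prx took the lowest ranks, 7 and 8, in every basal library, with Prx above Mag in 2 of 3. In apical libraries the order of mean FPKM was Cnp at 29.6 ± 8.99, Pmp22 at 28.8 ± 20.4, Mbp at 17.5 ± 17.9, Ncmap at 7.21 ± 8.58, Mal at 5.36 ± 4.69, Pmp2 at 0.585 ± 1.01, Mag at 0.153 ± 0.264 and Prx at 0.00702 ± 0.00618 FPKM. Of those neighbours, Mal stood above Pmp2 in 3 of 3 apical libraries and no other pair kept its order in all 3.

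The combined share of Pmp22 and Mbp in the myelin signal was nearly constant in basal libraries although the size of that signal was not. Pmp22 and Mbp together made up 85.5%, 85.6% and 84.4% of the summed FPKM of the 8 genes in basal replicates 1, 2 and 3, which summed to 975, 9528 and 7237 FPKM. In apical replicates 1, 2 and 3 they made up 49.8%, 67.2% and 23.1% of sums of 101, 113 and 53.1 FPKM. Cnp made up 2.50%, 5.59% and 2.34% in basal libraries, against 32.9%, 31.9% and 36.5% in apical libraries. Basal replicate 1 thus had the share of this pair seen in the other basal libraries, at a summed level between those of the other basal libraries and the apical ones. These shares were not tested, since they follow in part from levels that chose the genes.

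**Figure D2:**
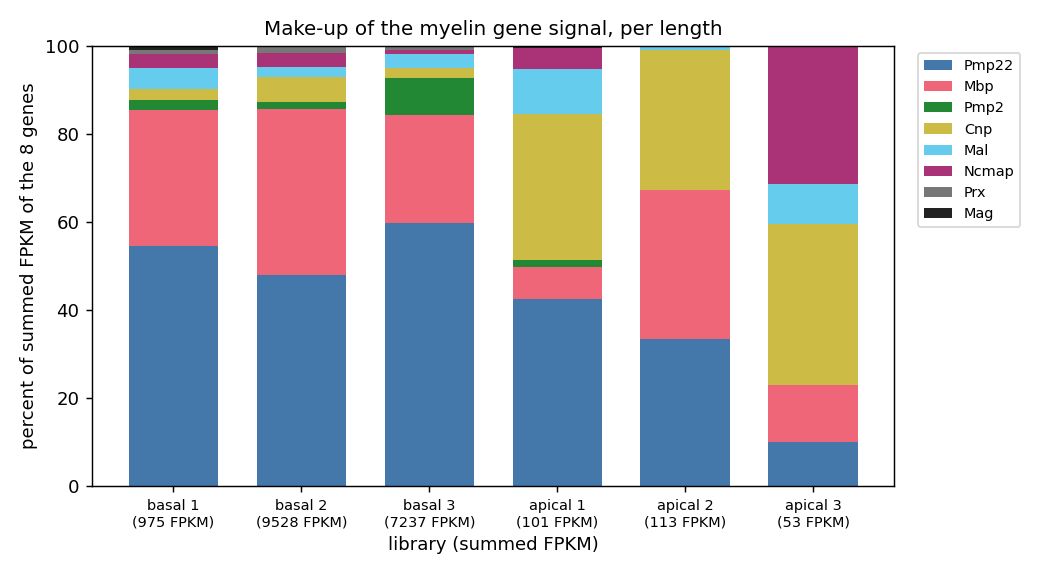
Percent of the summed FPKM of the 8 genes taken by each gene in each library, basal libraries on the left and apical libraries on the right, with the sum under each bar. Pmp22 and Mbp fill 84.4% to 85.6% of each basal bar and 23.1% to 67.2% of the apical bars, where Cnp takes 31.9% to 36.5%.

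Ratios to Mbp within a library showed which members kept step with it. Prx held the steadiest ratio, at 0.0227, 0.0343 and 0.0316 of the FPKM of Mbp in basal replicates 1, 2 and 3, a mean log2 ratio of -5.10 ± 0.31 (SD, n = 3). Pmp22 stood at 1.76, 1.28 and 2.44 times Mbp, and Cnp at 0.0809, 0.149 and 0.0954 times Mbp, with SDs of 0.47 and 0.45 on the log2 scale. Mal and Ncmap varied more, with SDs of 0.78 and 0.81. Pmp2 and Mag did not keep step with Mbp, with SDs of 1.50 and 1.51. Pmp2 had 0.0720, 0.0470 and 0.338 and Mag 0.0333, 0.00598 and 0.00502 of the FPKM of Mbp in basal replicates 1, 2 and 3. Pmp2 was relatively high in basal replicate 3 and Mag in basal replicate 1.

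All 8 genes had a higher CPM in basal replicate 2 than in basal replicate 1, by a median of 8.11 times and a range of 1.82 for Mag to 18.6 for Cnp. In basal replicate 3, 7 of the 8 were higher than in basal replicate 1, by a median of 5.65 times over the 8, with Mag at 0.783 times. Between basal replicates 3 and 2 only Pmp2, at 3.68 times, and Mal, at 1.17 times, were higher in replicate 3. The genes thus differed from each other in how they followed the basal libraries.

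Other genes of the myelin sheath and of Schwann cells were taken from 4 lists. These lists too were chosen with earlier results of the same libraries known, so their shares beside those of all genes are descriptions. None of their members reached an adjusted p under 0.05 in the quasi-likelihood fit of edgeR, adjusted by Benjamini and Hochberg's method over all genes, and 0 of all 13507 genes did (0%), while 811 (6%) had an unadjusted p under 0.05. DESeq2 called 363 genes (2.69%), 159 higher in basal libraries (1.18%) and 204 higher in apical libraries (1.51%). In these 4 lists, all members called by DESeq2 were higher in basal libraries.

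Of 23 other myelin membrane and junction proteins, 18 were tested, and 9 had an unadjusted p under 0.05 by edgeR. DESeq2 called 6 of the 18, and the bias-adjusted form of the edgeR test 2 (28 of all genes, 0.207%). Groups were separate and higher in basal libraries for 4 (22.2%, against 5.4% of all genes) and separate and higher in apical libraries for 2 (10.4% of all genes), with a median log2 fold change of 2.11. Cd9, a tetraspanin found in many cell types, and Plekhb1 had log2 fold changes of 1.00 (SE 0.75) and 0.68 (SE 0.44), with overlapping groups (edgeR adjusted p = 1.00 for each). Drp2, which binds periaxin at the outer Schwann cell membrane and was picked here after its values were seen, had 187, 261 and 124 basal counts, against 1, 0 and 0 apical counts. As with Prx, its reads were almost all basal.

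Of 29 regulators of myelination and enzymes of myelin lipids in the table, 26 were tested, 7 with an unadjusted p under 0.05 by edgeR and 5 called by DESeq2. Their median log2 fold change was 1.27, and 6 were separate and higher in basal libraries (23.1%) while 2 were separate and higher in apical libraries. The most abundant were Scd2, a fatty acid desaturase, with a log2 fold change of 1.27 (SE 0.59), Hmgcs1, of the sterol pathway, at 1.30 (SE 0.42), Elovl1, which lengthens fatty acids, at 2.30 (SE 0.83), and Ugt8, which makes galactosylceramide, at 3.38 (SE 1.07). None of these 4 passed by edgeR (adjusted p from 0.443 to 0.906), and Ugt8 was called by DESeq2 (adjusted p = 0.0198). Egr2, a transcription factor of myelinating Schwann cells, had 98, 922 and 427 basal counts, against 1, 0 and 0 apical counts. Sox10, a transcription factor of the glial lineage picked here after its values were seen, had 20, 3422 and 3470 basal counts, against 508, 1559 and 4420 apical counts, so its groups overlapped, with apical replicate 3 among its high libraries. In that library the 8 myelin genes had their lowest share.

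All 13 listed genes of the Schwann cell basal lamina and its receptors were tested, and 13 of 13 had log2 fold changes above 0, with a median of 2.41, against 49.0% of all genes above 0. DESeq2 called 2 of them, 4 had an unadjusted p under 0.05 by edgeR, and 4 were separate and higher in basal libraries (30.8%). Lamb1, a laminin chain, had 549, 5216 and 3572 basal counts, against 500, 309 and 272 apical counts (log2 fold change 3.38, SE 0.81). Utrn, a relative of dystrophin, had 2212, 4995 and 2572 basal counts, against 985, 626 and 1333 apical counts (2.07, SE 0.50). Both were among the DESeq2 calls, while Itgb1 (0.86, SE 0.92) and Dag1 (0.99, SE 0.72), a receptor subunit and dystroglycan, had overlapping groups. These genes are also expressed by other cells of connective tissue and vessels. Tested fibrocyte (9 of 9), osteoblast (8 of 8), macrophage (9 of 9) and red blood cell markers (3 of 3), described below, also all had log2 fold changes above 0.

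Genes of the node of Ranvier and its flanks, where myelin meets the axon, differed least of the 4 lists in median, at 0.63 over 14 tested genes, with 1 gene at an unadjusted p under 0.05 by edgeR and 1 called by DESeq2. That gene was Kcna2, a potassium channel of the axon beside the node, picked here after its values were seen, with 23, 818 and 820 basal counts and 0 in each apical library. Kcna2 was the 1 gene separate and higher in basal libraries (7.14%, against 5.4% of all genes). Nrcam, Cntn1 and Scn8a, also picked after their values were seen, were at -2.01 (SE 1.72), -3.77 (SE 1.95) and -2.19 (SE 2.17). Of these only Nrcam was separate and higher in apical libraries (10.4% of all genes). Of the 14 tested genes, 9 had log2 fold changes above 0. Gldn (gliomedin), Ank2, Ank3 and Dlg1 had log2 fold changes of 1.14 (SE 0.85), 2.09 (SE 1.91), 0.39 (SE 0.66) and -1.04 (SE 0.76), all with overlapping groups.

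**Figure D3:**
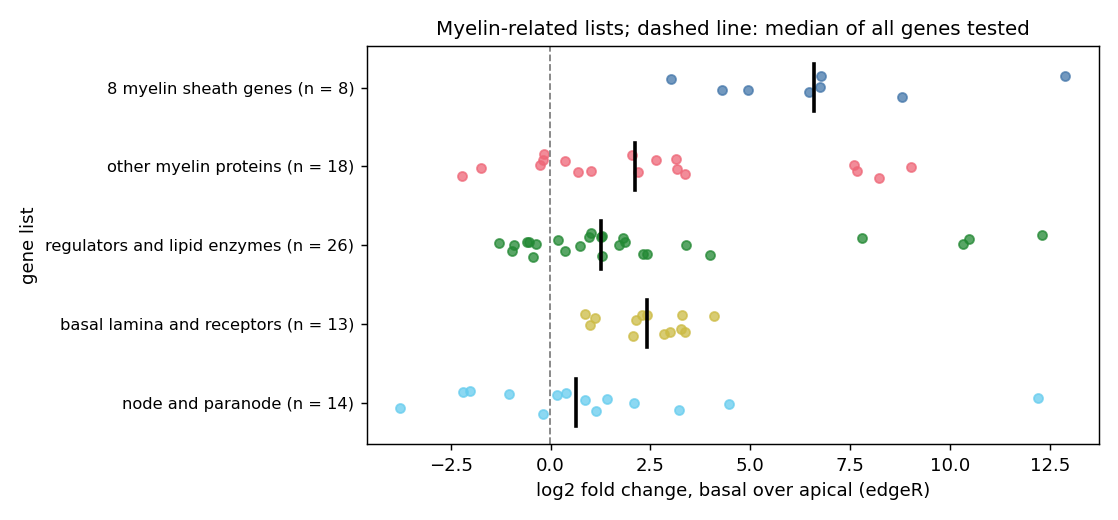
Fitted log2 fold change, basal over apical, of the 8 myelin sheath genes and of the tested members of 4 lists; points are genes, black bars list medians, and the dashed line the median of all genes tested at -0.02. Medians are 6.60 for the 8 genes, which were chosen on this contrast, and 2.11, 1.27, 2.41 and 0.63 for the lists from top to bottom; values of genes at or near 0 in a group depend on the prior count.

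The genes whose log2 CPM over the 6 libraries followed the mean of the 8 most closely were ranked among 13217 genes with a mean of at least 20 counts. Ebp, a sterol isomerase of cholesterol synthesis, had a Pearson's r of 0.999 and 383, 681 and 691 basal counts, against 253, 156 and 212 apical counts. The next annotated genes were Tagln2 (r = 0.995), an actin-associated protein, Egr2 (r = 0.992) and Kxd1 (r = 0.990), of lysosome positioning, with a locus that has no gene symbol between Ebp and Tagln2 (r = 0.996). The measure follows the shape and not the size of a change: Kxd1 had 1306, 1637 and 2052 basal counts, against 1253, 952 and 1257 apical counts. The 6 points share the split between turns and their libraries' depth. Measured in the same way against the mean of the other 7, the members themselves had r from 0.785 for Ncmap and 0.802 for Cnp to 0.981 for Prx.

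Markers of other cells moved with the myelin genes to different degrees. Their lists were also chosen with earlier results known, so shares beside those of all genes are descriptions. Outer hair cell markers were present in every library, and 13 of the 14 listed were in the table. Their summed share was 6.52%, 2.16% and 0.831% in basal replicates 1, 2 and 3, against 3.75%, 3.98% and 2.09% in apical replicates 1, 2 and 3. Ocm2 (oncomodulin), a calcium buffer, held 988572 counts in basal replicate 1 and most of that library's share. Without Ocm2, the other 12 took 1.17%, 0.694% and 0.256% in basal libraries, against 2.62%, 2.34% and 1.60% in apical libraries, so the groups were separate and apical libraries higher. The median log2 fold change of the 13 was -1.55, with 10 of 13 below 0, and 6 were separate and higher in apical libraries (10.4% of all genes): Calb1, Chrna9, Chrna10, Otof, Ptprq and Gfi1. By edgeR 0 of the 13 passed, 6 had an unadjusted p under 0.05, and DESeq2 called 2, Chrna9 and Otof, both lower in basal libraries; genes of this list beyond the 4 most abundant were picked after their values were seen. With and without Ocm2 the basal share was highest in replicate 1, where the share of the 8 myelin genes was lowest. Fibrocyte and mesenchyme markers took 0.150%, 1.10% and 0.586% in basal libraries, against 0.0839%, 0.106% and 0.0180% in apical libraries. Red blood cell markers took 0.137%, 0.691% and 0.472% in basal libraries, against 0.0634%, 0.0793% and 0.00990% in apical libraries. Both of these shares ranked the basal libraries as the myelin genes did. So did supporting cell markers, at 0.0705%, 0.202% and 0.121% in basal replicates 1, 2 and 3. Macrophage markers took 0.132%, 0.0220% and 0.195% in basal libraries and osteoblast markers 0.0256%, 0.191% and 2.01%, against 0.00395% to 0.00709% and 0.0289% to 0.123% in apical libraries, and these did not follow the myelin genes from library to library. Neuron markers took 0.0390% to 0.0941% in basal and 0.0368% to 0.04999% in apical libraries, and supporting cell markers 0.0705% to 0.202% in basal and 0.102% to 0.189% in apical libraries. Members of the neuron list differed from each other. Snap25 had 3025, 1887 and 3126 basal counts and Stmn2 3139, 1340 and 2380. Of the others, picked after their values were seen, Nefl had 3, 2078 and 1590 basal counts, against 1763, 279 and 333 apical counts. Gap43 had 1, 1305 and 969 basal counts, against 225, 7 and 67 apical counts. Median log2 fold changes were 2.03 for fibrocyte, 3.02 for red blood cell, 3.52 for macrophage and 3.57 for osteoblast markers. They were 1.37 for neuron and -0.39 for supporting cell markers. Of 9 tested macrophage markers, 8 were separate and higher in basal libraries (88.9%, against 5.4% of all genes). So were 3 of 9 fibrocyte, 2 of 3 red blood cell, 2 of 8 osteoblast, 2 of 8 neuron and 0 of 8 supporting cell markers. The part of these other cells in the difference of the myelin genes was not tested.

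Markers of other glia were read beside the myelin genes. Markers of oligodendrocytes, the myelinating cells of the central nervous system, summed to 1, 429 and 459 counts in basal libraries, against 671, 198 and 153 in apical libraries, over 10 genes. The most abundant were Cldn11, Ermn, Hapln2 and Mobp. Ermn had 0, 0 and 205 basal counts and 0 in each apical library, Hapln2 had 0, 0 and 103 basal counts, against 76, 0 and 6 apical counts, and Mobp had 1, 0 and 31 basal counts, against 72, 0 and 8 apical counts. Of the rest, named after their values were seen, Olig2 and Gpr17 were at 0 in all 6 libraries. Olig1 had 1 count in basal replicate 3 and none elsewhere. Opalin and Nkx6-2 were at 0 in basal libraries. Opalin had 0, 0 and 28 apical counts and Nkx6-2 had 24, 0 and 0. Mog, a defining oligodendrocyte protein, had 0, 0 and 46 basal counts, against 47, 0 and 13 apical counts. Cldn11, also found in epithelia, had 0, 429 and 73 basal counts, against 452, 198 and 98 apical counts. Markers of non-myelinating Schwann cells and satellite glia took 0.0233%, 0.151% and 0.201% in basal libraries, against 0.0540%, 0.0571% and 0.0259% in apical libraries. Most of it was S100b, at 3745, 24191 and 36718 basal counts, against 10920, 10354 and 3163 apical counts, while Gfap and Fabp7, also named after their values were seen, were at 0 in all 6 libraries. Cdh19, a cadherin of the Schwann cell lineage, had 0, 184 and 1941 basal counts and 0 in each apical library. Ncam1 had 2, 1 and 382 basal counts, against 953, 169 and 262 apical counts. Sox2 had 563, 603 and 571 basal counts, against 443, 110 and 2449 apical counts. Of the 10 genes of this list 3 were tested, S100b, Ncam1 and Sox2, 1 with a log2 fold change above 0, with a median of -0.38. That median leaves out the members under the count filter, Cdh19 among them. Of those, also named after their values were seen, Scn7a had 0, 33 and 640 basal counts and L1cam 0, 0 and 150, with 0 in each apical library. Ngfr had 0, 0 and 290 basal counts, against 0, 0 and 110 apical counts, and Cadm2 had 0, 1 and 18, against 13, 0 and 0.

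**Figure D4:**
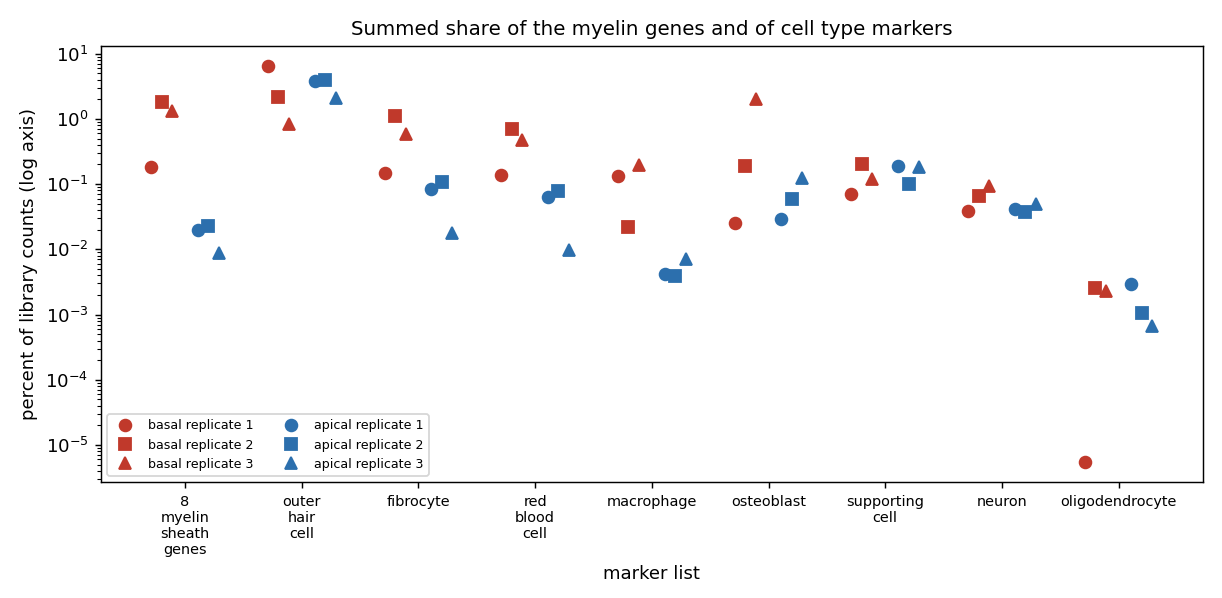
Percent of library counts, on a log axis, summed over the 8 myelin sheath genes and over each list of cell type markers, with basal libraries in red on the left and apical libraries in blue on the right. The myelin share is 0.182% to 1.80% in basal and 0.00872% to 0.0230% in apical libraries, while the outer hair cell share overlaps between the groups only with Ocm2 counted (without it, 0.256% to 1.17% in basal and 1.60% to 2.62% in apical libraries).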

How the data were processed

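RNA was sequenced from 3 basal-turn and 3 apical-turn libraries of 30 outer hair cells each. The authors deposited whole-number read counts per gene, per the file headers; Bowtie2 2.2.3 and TopHat2 2.0.12 are named in the submitters' processing notes, and the sources used here do not give the build, annotation, counter or test. The authors' FPKM divide counts by library total and a gene length that, per the file headers, is listed; for Mbp and Mag the length implied was 1959 and 2293 bases against 2160 and 2465 listed. The deposited mean normalized signal, log2 fold changes and p-values of the authors were not used.

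Counts were analysed with edgeR 4.0.16 in R 4.3.3: filterByExpr, TMM scaling, glmQLFit and glmQLFTest at their default options with no covariate, and Benjamini-Hochberg adjustment over all 13507 genes. SEs are the log2 fold change over the square root of F. Ratios of summed rates have exact binomial intervals at 95%. DESeq2 1.42.0, other scalings, no count filter, the replicate number as a block and each library left out were alternatives. Tests were checked on simulated counts. Plots used matplotlib 3.10.9. The kit named does not record strand, so a gene and its antisense partner share reads.

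The 8 genes and the lists were chosen with earlier results of these data known. From each list at most 4 genes were named by rule, those passing first and then those of highest mean CPM, and others only where said to be picked after their values were seen; the 5 genes most like the members were those of highest Pearson's r in log2 CPM (prior count 2). Of 171 list entries, 6 were not matched by symbol and not analysed here. Of the genes this rule named, 2 are not reported here.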

Additional observations from a re-analysis of the deposited data

How the results depend on the processing

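All 8 log2 fold changes stayed above 0 under every alternative run. The genes were chosen on this contrast and 7 of them had separate groups, so nothing is read from their signs. Under each other scaling and without the count filter, 7 of the 8 genes had separate groups. The number was also 7 with each library left out, except without basal replicate 1, where it was 8. Apart from small rescaling, leaving out a library cannot make separate groups overlap, so nothing is read from that part. With a library left out, the median over the 8 genes was 6.01 to 6.95, while single genes moved further. Without basal replicate 2 the log2 fold changes were 1.77 for Cnp, 2.84 for Ncmap, 5.94 for Mbp and 11.98 for Prx. Without apical replicate 2 that of Mbp was 8.04 and that of Ncmap 3.69, without apical replicate 3 that of Ncmap was 5.78, that of Pmp2 8.20 and that of Mag 5.87, without apical replicate 1 that of Mal was 5.83, and without basal replicate 3 that of Pmp2 was 7.33. Over all 6 omissions Pmp22 ranged from 6.28 to 7.30 and Mag, apart from the value given next, from 5.87 to 6.71. Without apical replicate 1 the fitted values of Pmp2 and Mag were 15.73 and 12.22, since both then had 0 apical counts, and with the replicate block that of Mag was 9.34. The number of genes passing was 363 by DESeq2, 663 by DESeq2 with no count filter (an alternative added after seeing the data), 28 by the bias-adjusted quasi-likelihood test, 8 with no count filter and 0 to 2 with a library left out, 2 without basal replicate 1. Of the other myelin proteins 6 were called by DESeq2 with and without the filter and 2 by the bias-adjusted test. Of the regulators and lipid enzymes these tests called 5, 6 and 1, of node genes DESeq2 called 1 and of basal lamina genes 2, with and without the filter. Same-numbered libraries deviated from their group means with correlations of -0.04, 0.01 and 0.14. From 3 libraries a group, these values cannot tell whether the replicate numbers pair the samples. With the replicate block 0 genes passed and the median over the 8 genes was 6.75. Ratios to Mbp moved by less than their SD under 35 of 35 alternatives. Where 1 of the 3 basal libraries was left out, a mean cannot move by as much as the SD, so nothing is read from those. The mean log2 ratio of Pmp2 was -3.26 with all basal libraries and -4.10 without basal replicate 3. That of Mag was -6.64 with all basal libraries and -7.51 without basal replicate 1. Values at 1 to 3 counts, as for Prx in apical libraries, are limited by depth.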
